A study of Mus musculus with 16 samples.

Results

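Bambi, the 4 Id genes and 5 further genes of bone morphogenetic protein (BMP) signalling were followed in naive and swim-stressed mice. The groups were different mice, read in ribosome-bound RNA of cortical astrocytes and in RNA of the whole cortex. The genes were Bmpr1a and Bmpr1b (receptors), Smad9, Smad6 and Smad7 (signal transducers and inhibitors), Bambi (a pseudoreceptor) and Id1, Id2, Id3 and Id4 (targets). They were taken by symbol from the 24060 genes listed for every library, and all 10 were found in all 16 libraries. The list was drawn up after Bambi had been seen to be higher in the astrocyte RNA of stressed mice, so that comparison describes the genes and tests none of them.

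All mice carried Aldh1l1CreERT2-RiboTag on the C57BL/6J background, received tamoxifen at 2 months of age and were 3 months old. Cre driven by the astrocyte gene Aldh1l1 places a haemagglutinin (HA) tag on a ribosomal protein, so that an antibody against HA pulls astrocyte ribosomes and their mRNA out of the tissue. The immunoprecipitate (IP) and the cleared lysate it came from (INPUT, with RNA of every cell type) were both sequenced, and the tissue was somatosensory cortex. Stressed mice swam for 20 min and rested for 90 min in the home cage, and naive mice did not swim. Each of the 4 groups, naive INPUT, stress INPUT, naive IP and stress IP, had 4 libraries, named here by their library numbers. The methods state that each animal was homogenized on its own and that IP and INPUT come from the same animals, but which IP belongs to which INPUT is not given with the samples. In RNA from bulk tissue, fewer cells of a type and less RNA per cell cannot be told apart.

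BMP ligands bind pairs of type I and type II receptor kinases, which phosphorylate SMAD1, SMAD5 and SMAD9, and these enter the nucleus with SMAD4. Their best known targets are the Id genes, whose proteins lack a DNA-binding domain and keep basic helix-loop-helix (bHLH) transcription factors off DNA. The pathway also raises its own brakes, the inhibitory SMAD6 and SMAD7 and BAMBI, a receptor-like membrane protein without a kinase domain. In the nervous system BMP signalling is known for promoting an astrocyte fate over neuronal and oligodendrocyte fates.

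Libraries held from 16392876 to 25814364 reads on genes, and values are given as counts per 1000000 of these reads (CPM). In naive mice all 4 astrocyte markers examined were higher in IP than in INPUT, by 3.47 to 4.50 on the log2 scale, and the neuronal, oligodendrocyte, microglial and endothelial markers were all lower. Of 3 mural markers, Pdgfrb was higher in IP. Naive IP replicate 11 and stress IP replicate 15 deviated most from their group medians, with a median absolute log2 deviation of 0.0953 and 0.105 against 0.0570 to 0.0809 in the other 6 IP libraries. Naive IP replicate 2 held 114 CPM of the choroid plexus gene Ttr, against 1.59 to 3.45 CPM in the other naive IP libraries.

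The level of the 10 genes in astrocyte RNA spanned a wide range. Levels of different genes were compared as CPM per kb of exon (GENCODE M21 exon unions). Reads were counted on RefSeq genes, whose exons may differ, and the order between genes rests on the GENCODE lengths. In naive IP, Id2 stood highest at 111 ± 5.71 CPM per kb (SD, n = 4) and Id4 followed at 95.5 ± 10.0, with ranges that overlapped. The receptor genes came next and could not be ordered, with Bmpr1b at 49.8 ± 1.95 and Bmpr1a at 49.5 ± 2.88 CPM per kb. Id3 followed at 22.2 ± 3.17 CPM per kb, above Id1 at 9.44 ± 1.01 and Smad9 at 8.33 ± 0.758, whose ranges overlapped. The inhibitors were lowest, with Smad7 at 2.17 ± 0.181, Smad6 at 1.31 ± 0.207 and Bambi at 0.318 ± 0.0638 CPM per kb, and no library of one overlapped the next. In stress IP the order of these last 2 was turned, with Bambi at 0.860 ± 0.101 and Smad6 at 0.704 ± 0.0871 CPM per kb, but their ranges overlapped. In naive INPUT, Id2 was again highest at 50.1 ± 5.19 CPM per kb, Smad7 came after Bmpr1a and Id4 at 7.35 ± 1.03, and Bambi (0.566 ± 0.115) and Smad6 (0.445 ± 0.0576) were lowest with overlapping ranges.

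**Figure D1:**
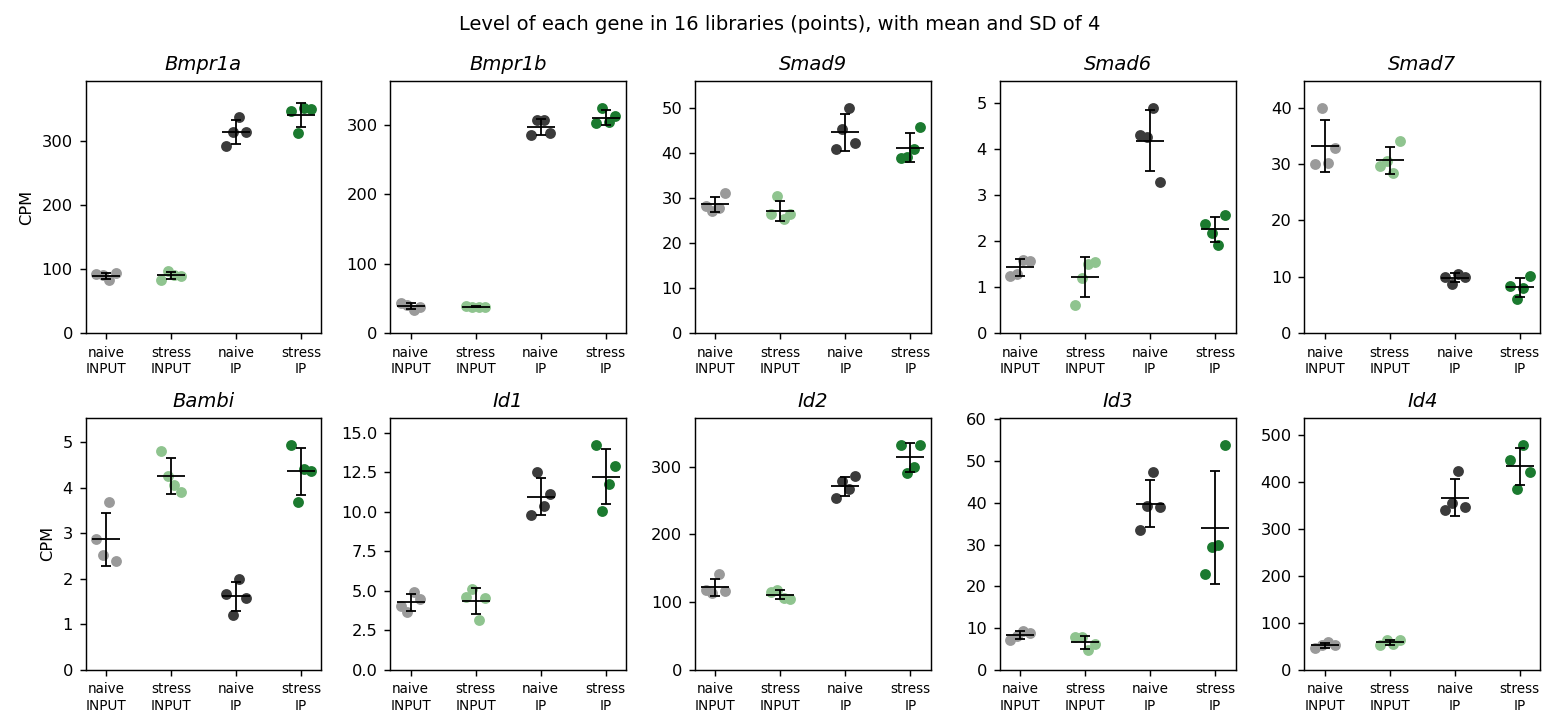
Level of each of the 10 genes in CPM (vertical axis, linear, from 0) in the 16 libraries by group, with points for libraries and bars for the mean and SD of 4. The stress IP points of Bambi lie above all its naive IP points and those of Smad6 lie below, while 8 of the 10 genes are higher in naive IP than in naive INPUT.

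The DNA just before the start of 3 genes that SMADs are known to act on or that encode SMADs is shown so that the motifs SMADs read can be seen beside the expression values. RefSeq promoter windows were matched for 7 of the 10 genes, and the single windows of Id4, Smad6 and Smad9 overlap no annotated exon. Each sequence is the 250 bases before the RefSeq start on GRCm38, written 5′ to 3′ on the gene's strand, at chr13:48260866-48261115 (+) for Id4, chr9:64022060-64022309 (−) for Smad6 and chr3:54755332-54755581 (+) for Smad9. Capitals mark GGCGCC, a GC-rich SMAD1/5 motif, and GTCT or its reverse complement AGAC, the SMAD box. Both strands were searched, and the motifs do not overlap each other.
Id4: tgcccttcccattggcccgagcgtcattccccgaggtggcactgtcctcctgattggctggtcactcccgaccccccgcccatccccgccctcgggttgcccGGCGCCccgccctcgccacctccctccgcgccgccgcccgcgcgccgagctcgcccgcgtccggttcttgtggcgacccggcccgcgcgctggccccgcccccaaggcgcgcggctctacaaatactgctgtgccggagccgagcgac
Smad6: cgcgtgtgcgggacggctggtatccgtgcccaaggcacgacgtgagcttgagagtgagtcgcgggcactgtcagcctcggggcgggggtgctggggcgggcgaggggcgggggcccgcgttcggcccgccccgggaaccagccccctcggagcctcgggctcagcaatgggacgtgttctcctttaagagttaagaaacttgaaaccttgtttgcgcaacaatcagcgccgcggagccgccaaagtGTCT
Smad9: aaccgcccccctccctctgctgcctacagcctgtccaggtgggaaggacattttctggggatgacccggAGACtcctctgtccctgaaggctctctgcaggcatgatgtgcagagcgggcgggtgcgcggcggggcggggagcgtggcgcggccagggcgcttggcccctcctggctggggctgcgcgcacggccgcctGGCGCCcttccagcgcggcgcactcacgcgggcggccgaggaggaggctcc
The Id4 window held GGCGCC, the Smad6 window held GTCT at its end, and the Smad9 window held both motifs. Of 32536 promoter windows of the same length, 9.65% held GGCGCC and 82.9% held GTCT on either strand, so the shorter motif is found almost everywhere. A match describes the letters and shows no binding.

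Most of the 10 genes were richer in astrocyte ribosomes than in the cortex as a whole. In naive mice 8 of the 10 were higher in IP than in INPUT (23.7% of the 13339 genes tested were) and 2, Smad7 and Bambi, were lower (64.0% of genes tested were), by limma with Benjamini-Hochberg adjusted p under 0.05. For all 10 genes no IP library overlapped an INPUT library, where 83.7% of genes tested had groups apart. The naive IP values of Bambi were part of what chose it, so its place in these counts is a description. The median log2 ratio of the 10 was 1.41 against −0.64 over all genes tested. When libraries were rescaled by the median ratio or to the same distribution, the median of all genes moved from −0.64 to 0.00 and 0.02 and the split of all calls moved from 3158 higher and 8540 lower to 5589 and 5642, or 5646 and 5483. After stress, 8 of the 10 genes were again higher in IP than in INPUT (23.6% of 13333 genes tested) and Smad7 was lower (62.5%). The corresponding splits of all calls after stress were 3143 higher and 8332 lower, then 5446 and 5524, or 5610 and 5286 on the rescaled values. All IP and INPUT libraries of a condition come from the same mice, so the libraries compared are not independent.

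**Figure D2:**
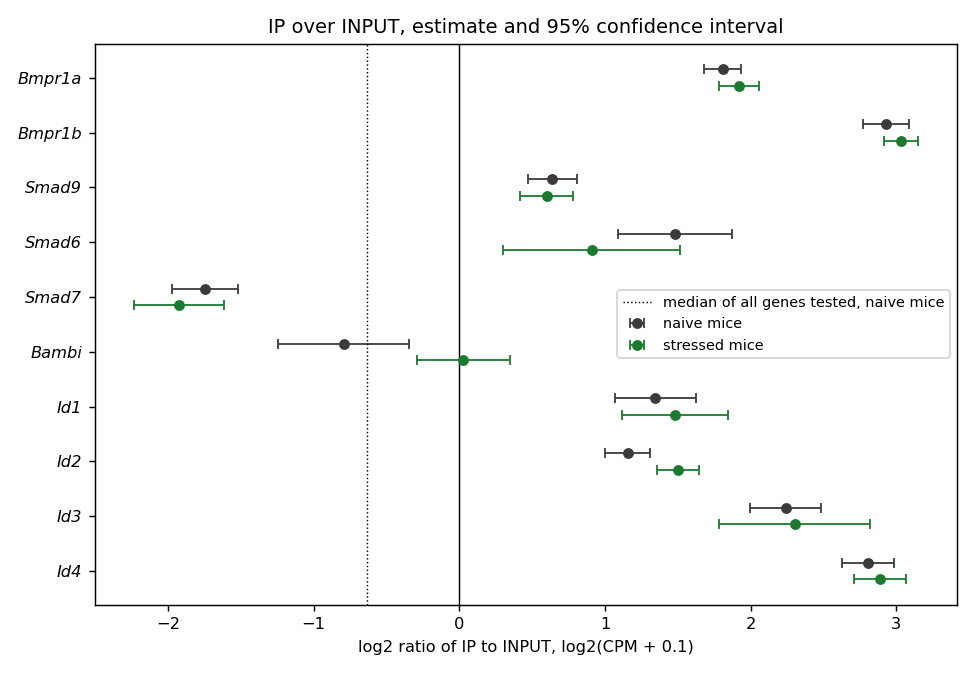
Log2 ratio of IP to INPUT of the 10 genes (horizontal axis, log2(CPM + 0.1)) in naive and in stressed mice, with points for the estimate from 4 against 4 libraries, bars for the 95% confidence interval and a dotted line for the median of all genes in naive mice. Bmpr1b and Id4 lie farthest to the right and Smad7 farthest to the left, and Bambi moves from −0.79 in naive mice to 0.03 in stressed mice.

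Both type I receptor genes of the list had more RNA in IP than in INPUT. Bmpr1b, a receptor kinase on chromosome 3 (141837136 to 142169425, minus strand, GRCm38), was read at 43.9, 40.3, 33.8 and 38.1 CPM in naive INPUT and at 286, 308, 307 and 288 CPM in naive IP. Every IP library was far above every INPUT library, a ratio of means of 7.61 and a log2 ratio of 2.93 ± 0.07 (SE; limma adjusted p = 2.0e-13), and 97.8% of genes tested had a lower ratio. Bmpr1a, the second type I receptor, was read at 82.6 to 93.4 CPM in naive INPUT and 292 to 337 CPM in naive IP. Its log2 ratio was 1.81 ± 0.06 (SE; limma adjusted p = 2.6e-12), and 92.7% of genes tested had a lower one. Per kb of exon Bmpr1a was above Bmpr1b in naive INPUT (14.1 ± 0.756 against 6.55 ± 0.711 CPM per kb, SD), whereas in naive IP the pair overlapped. After the swim the log2 ratios were 3.03 ± 0.05 for Bmpr1b and 1.92 ± 0.06 for Bmpr1a. Another gene model, Gm17110, overlaps Bmpr1a on the opposite strand, and whether strand was used in counting is not stated.

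The 3 SMAD genes did not behave alike. Smad9, which carries the BMP signal to the nucleus, was read at 28.4, 27.3, 27.8 and 31.1 CPM in naive INPUT and 40.9, 45.4, 50.1 and 42.4 CPM in naive IP. The IP values were higher without overlap, with a log2 ratio of 0.64 ± 0.08 (SE; limma adjusted p = 3.4e-06). Smad6, an inhibitory SMAD that acts mostly on BMP receptors, was scarce, with 22 to 32 reads per naive INPUT library. It was read at 1.24, 1.30, 1.60 and 1.58 CPM in naive INPUT and at 4.31, 4.25, 4.90 and 3.29 CPM in naive IP, a log2 ratio of 1.48 ± 0.18 (SE; limma adjusted p = 3.4e-06). In stressed mice the log2 ratio of Smad6 was 0.91 ± 0.28 (SE; limma adjusted p = 0.0087). Smad7, an inhibitory SMAD that acts on both BMP and TGF-β receptors, went the other way. Its naive INPUT values were 30.1, 40.0, 30.1 and 32.8 CPM and its naive IP values 9.94, 8.64, 10.6 and 10.0 CPM, a log2 ratio of −1.75 ± 0.11 (SE; limma adjusted p = 1.9e-09). Smad7 stayed lower in IP on both rescaled values, with log2 ratios up to −1.11 in naive mice and −1.27 in stressed mice.

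In naive mice Bambi had lower CPM in IP than in INPUT. It was read at 2.88, 2.53, 3.69 and 2.39 CPM in naive INPUT and at 1.66, 1.21, 2.00 and 1.59 CPM in naive IP. The groups did not overlap, and the log2 ratio was −0.79 ± 0.21 (SE), which became −0.18 after median-ratio rescaling and turned to 0.30 after quantile normalization. The median over all genes was −0.64, and 45.1% of genes tested had a lower ratio than Bambi. In stressed mice Bambi was read at 4.82, 4.27, 4.06 and 3.92 CPM in INPUT and 4.95, 3.70, 4.43 and 4.38 CPM in IP, and these overlapped, with a log2 difference of 0.03 ± 0.15 (SE). On the values rescaled by median ratio and by quantiles this difference was 0.64 and 0.95. In both conditions the differences are descriptions, since Bambi was chosen for stress IP being above naive IP.

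The Id genes were all higher in IP, by unequal amounts. Id4, read at 46.5, 51.9, 59.0 and 52.6 CPM in naive INPUT, reached 341, 357, 425 and 347 CPM in naive IP, a log2 ratio of 2.80 ± 0.08 (SE; limma adjusted p = 9.1e-13). Id3 was read at 7.17, 8.18, 9.18 and 8.75 CPM in naive INPUT and 33.6, 39.3, 47.3 and 39.0 CPM in naive IP, a log2 ratio of 2.24 ± 0.11 (SE; limma adjusted p = 2.4e-10). Id1, the least abundant of the 4 per kb in naive IP, went from 3.65 to 4.89 CPM in naive INPUT to 9.79 to 12.5 CPM in naive IP, a log2 ratio of 1.34 ± 0.13 (SE; limma adjusted p = 2.8e-07). Id2, the highest of the 4 per kb in INPUT, had the lowest ratio, with 113 to 141 CPM in naive INPUT, 253 to 285 CPM in naive IP and a log2 ratio of 1.15 ± 0.07 (SE; limma adjusted p = 2.2e-09). After stress the log2 ratios were 2.89 ± 0.08 for Id4, 2.30 ± 0.24 for Id3, 1.50 ± 0.07 for Id2 and 1.48 ± 0.17 for Id1. The opposite strand of Id4 carries A330033J07Rik, a gene listed at 0.349 to 1.59 CPM in naive INPUT and 1.45 to 1.98 CPM in naive IP.

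In astrocyte RNA, the libraries of stressed mice held more Bambi than those of naive mice. The Smad6 values were lower, without passing the threshold below, and the log2 differences of the other 8 genes lay between −0.29 and 0.24. Of the 10 genes, 1 (Bambi) passed an adjusted p of 0.05 in this comparison, where 0.440% of the 12501 genes tested did, and 3 (Bambi, Id2 and Smad6) had groups that did not overlap, where 5.00% of genes did. Because the genes were picked from this comparison, nothing is read from these counts. The members' median log2 fold change was 0.09, against 0.00 over all genes tested.

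**Figure D3:**
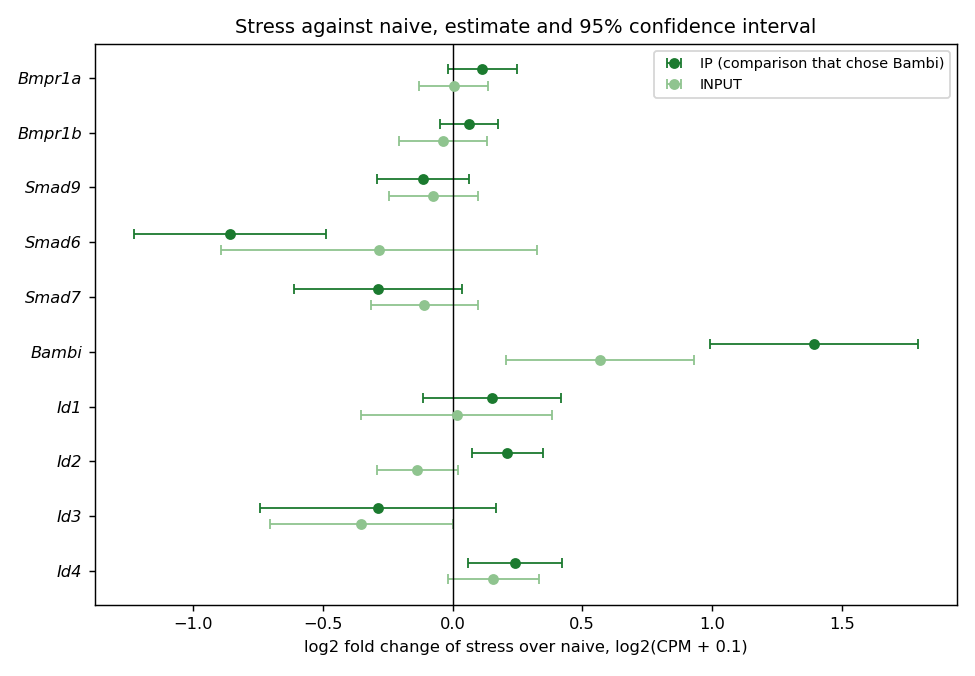
Log2 fold change of stress over naive (horizontal axis, log2(CPM + 0.1)) for the 10 genes in IP and in INPUT, with points for the estimate from 4 against 4 libraries and bars for the 95% confidence interval. Bambi lies at 1.39 in IP and 0.57 in INPUT, Smad6 at −0.86 in IP and −0.28 in INPUT, and the other genes lie between −0.35 and 0.24.

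Bambi lies on chromosome 18 (3507923 to 3516404, plus strand, GRCm38). Its 4 naive IP libraries held 1.66, 1.21, 2.00 and 1.59 CPM, from 27 to 51 reads each, and its stress IP libraries 4.95, 3.70, 4.43 and 4.38 CPM, from 75 to 111 reads each. The lowest stress value was above the highest naive value. The ratio of means was 2.70, and the log2 fold change was 1.39 ± 0.18 (SE), with a 95% confidence interval of 0.99 to 1.79. Of 12501 genes tested, Bambi had the 11th highest fold change. Leaving out each library in turn gave 1.27 to 1.50. Since Bambi was picked for this rise, the interval, the rank and this range describe it and test nothing. The pseudogene Bambi-ps1, which could share reads with Bambi, has its own entry and was read at 0.542 to 1.27 CPM in naive IP and 0.669 to 1.38 CPM in stress IP, so its ranges overlapped where those of Bambi did not.

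Smad6 was the 12th lowest of the 12501 genes in the same comparison. It was read at 4.31, 4.25, 4.90 and 3.29 CPM in naive IP (85 to 125 reads) and at 2.36, 2.17, 1.92 and 2.57 CPM in stress IP (42 to 64 reads). All 4 stress values were below all 4 naive values, with a log2 fold change of −0.86 ± 0.17 (SE) and a 95% confidence interval of −1.23 to −0.49. The summed level of the 4 endothelial markers moved the same way, from 8.68 to 12.4 CPM in naive IP to 6.59 to 8.53 CPM in stress IP, with none of the 4 at 0 in any library. Most of that sum was Flt1 (means of 7.29 and 5.29 CPM), whose groups overlapped. The sum of the 3 mural markers was 151 to 200 CPM in naive IP and 125 to 161 CPM in stress IP, mostly Pdgfrb (means of 132 and 112 CPM). Rgs5, also a mural marker, went the other way (log2 fold change 0.17 ± 0.30, SE). Median log2 fold changes of the other markers tested were −0.30 for neurons, −0.11 for microglia, −0.23 for fibroblasts and −1.24 for choroid plexus. The fibroblast and choroid plexus medians rest on 2 genes each. For choroid plexus these were Ttr (−1.72 ± 1.17, SE), high in naive IP replicate 2, and Kl (−0.76 ± 0.57, SE), both with overlapping groups. For astrocytes and for oligodendrocytes the median was 0.02. In naive mice Smad6 was higher in IP than in INPUT, and all 4 endothelial markers were lower in IP, by 1.91 to 3.89 on the log2 scale. The part of any of these cell types in the Smad6 difference between stress IP and naive IP was not tested.

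Among the Id genes, Id2 and Id4 had the higher values after stress. Id2 was read at 253, 278, 267 and 285 CPM in naive IP and 332, 291, 300 and 332 CPM in stress IP, a log2 fold change of 0.21 ± 0.06 (SE) with no overlap. Id4 went from 341, 357, 425 and 347 CPM to 448, 386, 480 and 421 CPM, a log2 fold change of 0.24 ± 0.08 (SE), and naive IP replicate 11 lay inside the stress range. Id1 overlapped widely, with 9.79, 12.5, 10.4 and 11.1 CPM in naive IP and 14.2, 10.1, 11.7 and 12.9 CPM in stress IP (log2 fold change 0.15 ± 0.12, SE). Id3 had the widest spread of the 10 genes in stress IP relative to its mean (coefficient of variation 39.9%). Its 4 stress values were 23.0, 29.4, 30.0 and 53.9 CPM, with the highest in replicate 15, against 33.6, 39.3, 47.3 and 39.0 CPM in naive IP. Its log2 fold change was −0.29 ± 0.21 (SE), and −0.53 without stress IP replicate 15.

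The receptors and the remaining SMAD genes differed little in IP, with overlapping groups. Bmpr1a was read at 292 to 337 CPM in naive IP and 312 to 351 CPM in stress IP, and Bmpr1b at 286 to 308 and 302 to 324 CPM. Their log2 fold changes were 0.12 ± 0.06 and 0.06 ± 0.05 (SE), with 95% confidence intervals of −0.02 to 0.25 and −0.05 to 0.18. Smad9 was read at 40.9 to 50.1 CPM in naive IP and 39.1 to 45.8 CPM in stress IP, with an interval of −0.29 to 0.06. Smad7 was read at 9.94, 8.64, 10.6 and 10.0 CPM in naive IP and 8.38, 5.97, 8.03 and 10.1 CPM in stress IP, a log2 fold change of −0.29 ± 0.15 (SE) with an interval of −0.61 to 0.04.

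The rule did not use the INPUT libraries, where the same stress could be tested, although the mice are the same. None of the 10 genes passed the threshold, with 0 of 10 at an adjusted p under 0.05 by limma, where 0.0442% of the 13577 genes tested did, and 1 of 10 had an unadjusted p under 0.05, where 5.03% of genes did. On reads recovered from the values, limma-voom also called 0. The gene at an unadjusted p under 0.05 was Bambi. Its INPUT values were 2.88, 2.53, 3.69 and 2.39 CPM in naive mice and 4.82, 4.27, 4.06 and 3.92 CPM in stressed mice, and it was the 1 of the 10 whose groups did not overlap, where 2.87% of genes tested had groups apart. The ratio of means was 1.49 and the log2 fold change 0.57 ± 0.17 (SE), with a 95% confidence interval of 0.21 to 0.93. Over all genes tested limma gave an adjusted p of 0.55, and over the other settings and the omission of each library it ranged from 0.17 to 1.00. Taken alone, an exact permutation test (two-sided, 70 labelings) gave p = 0.0286, the smallest it can give.

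For the other 9 genes the INPUT groups overlapped and the intervals of the log2 fold change all included 0. Id3 came nearest to a difference, with 7.17, 8.18, 9.18 and 8.75 CPM in naive INPUT and 7.81, 7.86, 4.66 and 6.12 CPM in stress INPUT. Its log2 fold change was −0.35 ± 0.16 (SE; limma adjusted p = 0.98, exact permutation p = 0.114). Id4 was read at 46.5 to 59.0 CPM in naive INPUT and 52.8 to 63.0 CPM in stress INPUT, with an interval of −0.02 to 0.33. For Id2 the interval was −0.29 to 0.02, and for Id1 it was −0.35 to 0.38. The intervals of the receptors were −0.13 to 0.14 for Bmpr1a and −0.21 to 0.13 for Bmpr1b. Those of Smad9 and Smad7 were −0.24 to 0.10 and −0.31 to 0.10. Smad6, at 10 to 33 reads per stress INPUT library, could not be resolved, with values of 0.610, 1.20, 1.51 and 1.54 CPM after stress and an interval of −0.89 to 0.33.

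Set side by side, the stress difference of Bambi was larger in IP than in INPUT by 0.82 ± 0.24 on the log2 scale (SE, 16 libraries), with a 95% confidence interval of 0.31 to 1.34. For Id2 the estimates had opposite signs (0.21 in IP and −0.14 in INPUT), and the difference was 0.35 ± 0.10 (SE), with an interval of 0.14 to 0.56. The difference for Smad6 was −0.58 ± 0.33 (SE), with an interval of −1.27 to 0.12. The other 7 genes had differences between −0.18 and 0.14. The intervals are not adjusted for the number of genes. By limma, 0 of the 10 genes passed the adjusted threshold, a count given as a description. The intervals treat the 16 libraries as independent, although IP and INPUT come from the same mice. Of all 13341 genes tested for such a difference, 3 passed. The differences given here are descriptions, since the IP comparison enters each of them.

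The rest of the pathway was followed through 73 genes in 7 lists, of which 60 were tested in the naive comparison of IP with INPUT. By limma 22 of the 60 were higher and 31 lower in IP, with a median log2 ratio of −0.32, where 23.7% of all genes tested were higher, 64.0% were lower and the median was −0.64. The same shares stand behind the counts of each list. Among BMP ligands, Gdf10 had the highest log2 ratio (2.72 ± 0.22, SE) and Bmp2 the lowest (−3.44 ± 0.32, SE), with 2 of 7 higher and 4 lower. Among the extracellular antagonists, 2 of 11 were higher and 7 lower, and Chrdl1, which encodes chordin-like 1 and was read at 321 to 369 CPM in naive IP, had the highest log2 ratio (3.55 ± 0.09, SE). The co-receptor gene Rgma (2.39 ± 0.09, SE) and Acvrl1, a type I receptor of endothelial cells (−3.26 ± 0.18, SE), bounded the other receptors, with 2 of 8 higher and 4 lower.

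Inside the cell the same spread was seen. Smad5, a BMP-responsive SMAD, had the highest log2 ratio among transducers and regulators (1.89 ± 0.06, SE) and Skil, which encodes a SMAD co-repressor, the lowest (−2.79 ± 0.12, SE), with 4 of 13 higher and 8 lower. Of the TGF-β and activin genes, 2 of 11 were higher and 8 lower, from the ligand Tgfb2 (2.83 ± 0.08, SE) to the activin receptor Acvr1b (−2.89 ± 0.08, SE). All 4 other BMP targets were higher in IP, between Hey1 (0.56 ± 0.07, SE) and Atoh8 (2.03 ± 0.20, SE), both transcription factors. All 6 bHLH genes, the class of proteins that Id proteins bind, were higher as well, and Olig1, known from the oligodendrocyte lineage, had the highest log2 ratio (1.28 ± 0.11, SE).

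**Figure D4:**
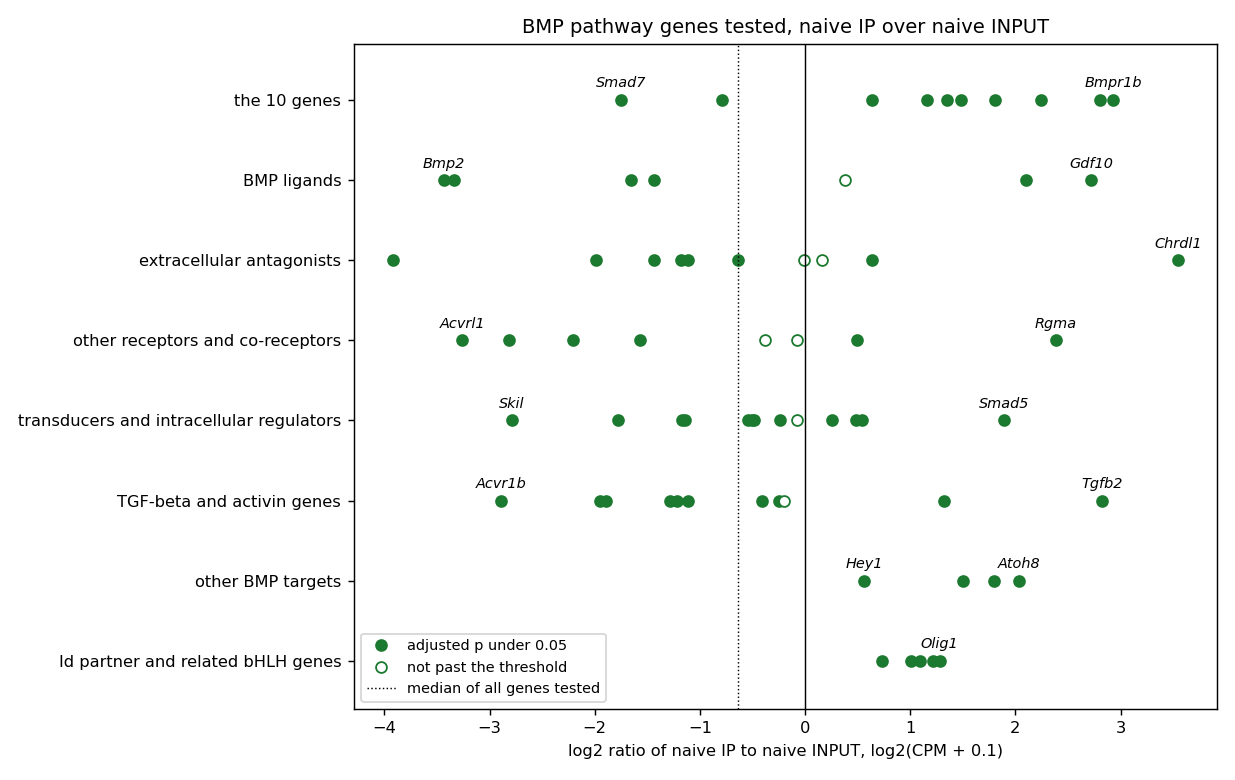
Log2 ratio of naive IP to naive INPUT (horizontal axis, log2(CPM + 0.1)) of the 10 genes and of the tested genes of 7 pathway lists (rows), with filled points for adjusted p under 0.05, open points for genes that did not pass, and gene names at the ends of the rows, where reported. Of the pathway genes tested, 2 are not drawn. Ligands, antagonists and receptors spread over both sides of the dotted median of all genes, and the targets and bHLH genes all lie to the right of 0.

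Neither stress comparison gave a call among the pathway genes. In IP, 0 of the 53 tested passed an adjusted p of 0.05 by limma and 8 had an unadjusted p under 0.05, where 8.27% of all genes did. In INPUT 0 of 59 passed and 8 had an unadjusted p under 0.05, where 5.03% of all genes did. limma-voom also called 0 in both. The median log2 fold changes were −0.06 in IP and 0.00 in INPUT, against 0.00 over all genes tested in both. In IP the groups of 4 of the 53 genes did not overlap, with lower values after stress, where 5.00% of all genes had groups apart. Those reported, named after their values were seen, were the ligand gene Bmp7 (log2 fold change −0.31 ± 0.09, SE), the type II receptor gene Acvr2a (−0.09 ± 0.07, SE) and Zeb2, whose product binds SMADs (−0.13 ± 0.05, SE). In INPUT the groups of 3 of the 59 genes were apart, with higher values after stress, where 2.87% of all genes were apart. These were Twsg1, which encodes a secreted BMP-binding protein (0.13 ± 0.06, SE), Skil (0.25 ± 0.07, SE) and Tob2, of the antiproliferative TOB family (0.21 ± 0.08, SE). Without naive IP replicate 11, or with array weights, 3 pathway genes passed in IP, Inhbb (an activin subunit) and Olig2 as lower and Tob2 as higher. In that replicate Olig2, a bHLH gene of the oligodendrocyte lineage, was read at 29.0 CPM, the lowest of a naive IP range that reached 85.0 CPM, while stress IP held 27.0 to 36.3 CPM.

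The genes whose IP profile was most like that of Bambi, Id1 and Id3 were ranked by Pearson's r on log2(CPM + 0.1) over the 8 IP libraries, as a description. For Bambi these were Usp53 (r = 0.977), Tram1 (0.971) and Zswim6 (0.970). All 3 had higher values in every stress IP library than in any naive IP library, and Zswim6 went from a mean of 32.7 to 84.3 CPM. Bambi was chosen for being higher in stress IP, so genes picked for their likeness to it would share that split. For Id1 they were Magohb (0.941), Fyn (0.936) and Eif1ax (0.921), and for Id3 they were Bai2 (0.981), Kdm3b (0.980) and Fmnl3 (0.971), with overlapping groups in all 6. The 8 libraries share 2 conditions and differ in depth, and all 12501 genes tested there were searched.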

How the data were processed

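The members, the gene lists and the tests were chosen with earlier results of these data known. The authors depleted ribosomal RNA, aligned reads to mm10 with STAR, counted uniquely mapped reads on RefSeq genes with HTSeq, and deposited log2 CPM for each library, scaled to its own total without gene length or scaling across libraries. Versions and strandedness are not given in the sources used here. The deposited log2 values gave whole reads for all genes (within 0.05 reads), and 3 reads are at most 0.183 CPM. Intervals are of the mean difference and rest on the spread between libraries, with each gene's variance moderated by limma over all genes. Tests used limma 3.58.1 under R 4.3.3 (lmFit, eBayes with a variance trend) on log2(CPM + 0.1). Genes had to average more than 1 CPM over the libraries of a fit, and p-values had Benjamini-Hochberg adjustment over all genes tested. Fold changes on this scale understate those of low genes. Single INPUT differences also had two-sided exact permutation tests.

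Named genes were the 10 members, pathway genes past the threshold in a stress comparison, the highest and lowest IP to INPUT ratio of each of 7 lists (73 genes), and the 3 genes most correlated with Bambi, Id1 and Id3. Some genes that entered the counts are not reported here by themselves. The fit was tested on simulated data. Alternatives were pseudocounts of 1 and 0.01, no filter, a mean above 5 CPM, median-ratio scaling, quantile normalization, limma-voom on recovered reads, no variance trend, array weights, all 16 libraries in 1 model, Xist as a covariate (both sexes were used) and omission of each library. Exon lengths and coordinates came from GENCODE M21 (GRCm38) and promoters from RefSeq (GRCm38.p6). Labels place tamoxifen about 1 month before the experiment and the methods give a shorter interval. Python 3.11.15, pandas 2.3.3, SciPy 1.17.1 and matplotlib 3.10.9 were used.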

Additional observations from a re-analysis of the deposited data

Results flagged for a closer look

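Of 40 sets of 4 libraries (10 genes in 4 groups), 2 held a value set apart from the other 3 by Dixon's 95% criterion for 4 values, and chance gives about 2. Id2 in naive INPUT replicate 14 was read at 141 CPM, against 113 to 118 CPM in the other naive INPUT libraries. Bmpr1a in stress IP replicate 5 was read at 312 CPM, while the other 3 stress IP libraries held 347 to 351 CPM. No value of Bambi or Smad6 was set apart in this way.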

How the results depend on the processing

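In stress IP against naive IP, which chose the genes, the log2 fold change of Bambi ranged from 1.04 (pseudocount of 1) to 1.50 over the alternatives. Calls among the 10 genes there are a description. They went from 1 to 0 when the filter was a mean above 5 CPM, which removes Bambi and Smad6. With array weights 2 passed, and leaving out 1 library gave 1 to 2, the other being Smad6, which passed in these 2 settings (array weights, without stress IP replicate 15) and in no other. The count of all genes, 55, became 19 without the variance trend, 143 with array weights, 129 with all 16 libraries in 1 model, and 17 to 122 with 1 library left out (122 without naive IP replicate 11, 17 without naive IP replicate 13). In INPUT the count of all genes, 6, became 0 without the trend (727 at an unadjusted p under 0.05 by limma, and 5 called by limma-voom), 50 with array weights, and 1 to 32 with 1 library left out (32 without naive INPUT replicate 14), and the 10 genes gave 0 calls throughout. Pathway genes, an alternative count added after seeing the data, went from 0 in IP to 3 with array weights (Inhbb, Olig2, Tob2), 1 in the model of 16 libraries (Olig2), and 0 to 3 with 1 library left out.

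The Bambi difference between fractions, 0.82, was 0.59 with a pseudocount of 1 and 0.70 to 0.93 with 1 library left out. In naive mice the Bambi IP to INPUT ratio was −0.18 with median-ratio scaling and 0.30 with quantile normalization, and in stressed mice 0.64 and 0.95, with 9 of the 10 genes still called in naive mice on either scaling. The INPUT stress difference of Id1, 0.02, was −0.0282 with array weights and −0.0697 to 0.159 with 1 library left out. That of Bmpr1a, 0.00, was −0.0004 with quantile normalization, −0.0197 with array weights and −0.0348 to 0.0399 with 1 library left out, and that of Bmpr1b, −0.04, ranged from −0.103 to 0.0226. These INPUT values of Id1, Bmpr1a and Bmpr1b all moved by less than their standard errors (0.17, 0.06 and 0.08). The Bambi IP to INPUT ratios moved by more than theirs on both scalings. The causes of these changes were not tested. Among single-gene values under alternatives, 968 kept direction and side of the threshold or moved by less than the spread between libraries, 12 turned, 3 moved further and 1 lost its call. No paired analysis was possible because the labels number libraries without saying which IP and INPUT share a mouse, and no numbers are shared between groups. Smad6 and Bambi rest on 10 to 125 reads per library, which limits their precision. The p-values treat libraries as independent.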
